A study of Mus musculus with 16 samples.

Results

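The factorial interaction of the Shp2 and Mek1 alleles was measured in mouse dorsal skin, as the difference Double minus Mek1gof less the difference Shp2lof minus control, over all 16 arrays of the series and all 10232 genes with a detected, named probe. It asks whether both alleles act independently on a transcript. The 4 Double arrays were from mice with both mutant alleles and the Krox20-cre driver. The 4 Mek1gof arrays were from mice with the driver and the gain-of-function Mek1 allele, written Mek1fstop/+ in the series title. The 4 Shp2lof arrays were from mice with the driver and the conditional Shp2 allele, written Shp2fl. The 4 control arrays were labelled only as control, and whether they carried Cre or either allele is not stated in the labels. All mice were 15 days old and of a mixed C57/BL6;129Ola background. The labels do not say whether the arrays of a group came from separate animals, so the p-values cover no more than sample-to-sample spread, which may be technical. An interaction is 0 where both effects add on the log2 scale, negative where the Shp2lof effect was more negative beside the Mek1 allele, and positive where it was more positive there.

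Shp2, the product of Ptpn11, is a tyrosine phosphatase that carries signals from receptor tyrosine kinases to Ras. Mek1, the product of Map2k1, lies further down that cascade and phosphorylates ERK, so an active Mek1 can signal to ERK without an upstream input. Krox20, the product of Egr2, is a transcription factor of myelinating Schwann cells that is also expressed in hair follicles. Cre under its control acts in the cells that use the gene and their descendants, so whole skin also contains cells that keep intact alleles. A signal from fewer cells of a type and less RNA per cell cannot be told apart in such bulk samples.

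Each array detected between 13022 and 13959 probes, with a median signal of 71.33 to 95.88. Each of the 2 slides held 2 arrays of every group, but position within a slide was fixed by group, so position and group cannot be told apart. The defining skin genes were present: summed keratinocyte marker levels were 15.97 to 16.54 in Double, 16.22 to 16.62 in Mek1gof, 16.44 to 16.64 in Shp2lof and 16.26 to 16.49 in control arrays (log2, 7 of 8 markers tested, Flg not). Sex-linked genes differed between arrays of a group and between groups. Xist, a transcript of female cells, was high on both slide 1 arrays of Double and of Mek1gof and low on both slide 2 arrays of Mek1gof, so sex and slide went together there. Shp2lof 4, Mek1gof 2 and Double 4 had levels of Xist and Eif2s3y, a Y-linked gene, that fitted neither sex cleanly, and results are also given without these 3 arrays. Shp2lof replicates 1, 2 and 3 had male levels (Xist 5.31, 5.09 and 6.12, Eif2s3y 10.40, 10.86 and 10.55), so no Shp2lof array was clearly female. Control replicates 2 and 4, Mek1gof replicate 1 and Double replicates 1 and 2 had female levels. Sex and group are therefore partly confounded. Eif2s3y itself had an interaction of -4.79, which did not pass the threshold.

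The genes of the altered proteins and of the driver showed no interaction. Ptpn11 was at 12.85, 12.91, 13.15 and 12.86 in Double, 13.13, 12.84, 12.82 and 12.97 in Mek1gof, 12.84, 12.74, 12.81 and 12.90 in Shp2lof and 12.96, 12.74, 12.83 and 12.94 in control skin (normalized log2 intensity). Its interaction was 0.05 ± 0.16 (SE, adjusted p = 0.983, limma). That of Map2k1 was 0.05 ± 0.35 (adjusted p = 0.993) and that of Egr2 0.03 ± 0.28 (adjusted p = 0.993). All 4 groups overlapped for Ptpn11. Where the probes lie relative to the altered exons is not stated, so these levels do not check the genotypes.

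Of the 10232 genes, 9 passed the interaction threshold (0.088% of genes, limma, Benjamini-Hochberg adjusted p under 0.05), 7 with a negative interaction (0.0684%) and 2 with a positive one (0.0195%). All 9 were suppressed: the Shp2lof effect seen without the Mek1 allele was smaller beside it. None was enhanced, and none was turned, which would need an effect at least as large in the other direction. Except for Fcgr4, the small remaining difference between Double and Mek1gof had the other sign than the Shp2lof effect, and it passed the threshold for none of the 9 (limma). At an unadjusted p under 0.05 there were 734 genes (7.17%), 318 positive (3.11%) and 416 negative (4.07%). A further 8534 genes (83.4%) were additive within 2-fold, meaning that the 95% confidence interval of the interaction lay inside -1 to 1 on the log2 scale. Genes that respond to neither allele can meet this, and so can a single effect below 2-fold that is lost beside the second allele. For 1689 genes (16.5%) the interval was too wide to settle either way. The median half-width of the interval was 0.50 and the smallest interaction that passed had a size of 1.25. Most smaller interactions could not have been separated from the spread in this fit. Within 1.5-fold, only 28.3% of genes could be called additive. The number of calls moved with the arrays: without Double replicate 1 there were 19 calls, without Double replicate 2 there were 16, with slide as a block 17, and without the 3 arrays of unclear sex 5. Any difference among the 4 groups was called for 452 genes (4.42%) and Double against control for 397 (3.88%), 188 higher (1.84%) and 209 lower (2.04%). The count for any difference was 280 without control replicate 2, 272 without control replicate 3 and 293 without Shp2lof replicate 2. That for Double against control was 264, 136 and 150 without control replicates 1, 2 and 3, and 181 and 196 without Double replicates 2 and 3.

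The sorting depends on which allele is taken as the starting effect. Sorted by the sum of both single effects, again 9 genes were suppressed. Sorted by the Mek1gof effect, 2 were suppressed (Hamp2 and Serpina3b), 4 were enhanced and 3 turned. Of those 7, Pyy alone passed Mek1gof against control (-1.15, adjusted p = 0.0326, limma). Among the 261 genes past the threshold in Shp2lof against control (2.55%; 154 higher, 1.51%, and 107 lower, 1.05%), 9 were suppressed, 101 additive within 2-fold and 151 not settled. Since the same Shp2lof and control arrays enter the single effect and the interaction, noise in them alone moves genes toward suppressed. The sorting is therefore a description. The 261 were 164 without control replicate 2, 137 without control replicate 3, and 164, 130 and 154 without Shp2lof replicates 1, 2 and 4.

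**Figure D1:**
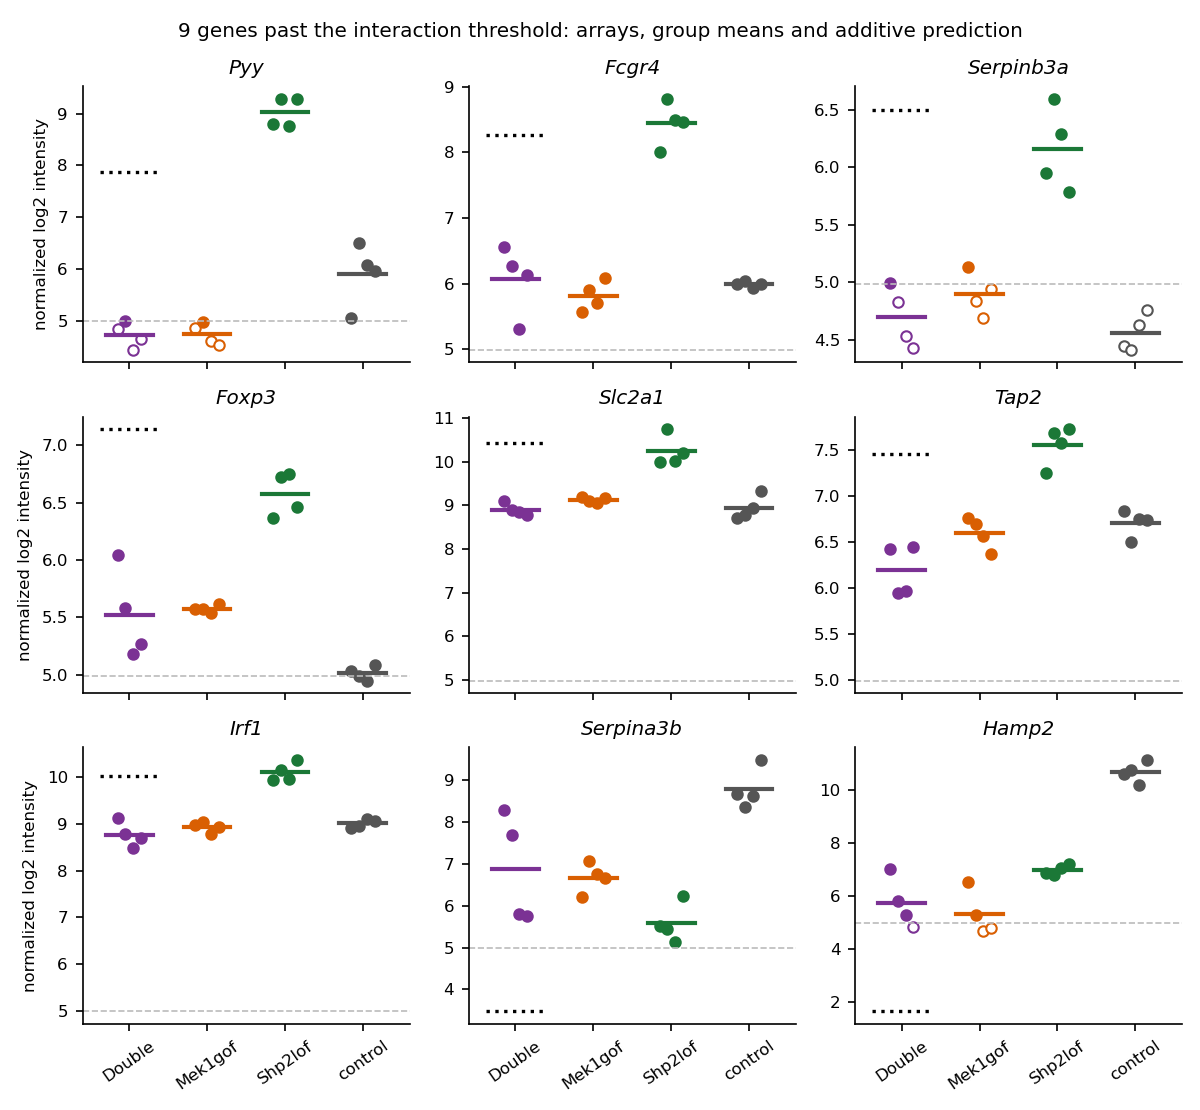
Normalized log2 intensity of the 9 genes past the interaction threshold, 1 panel per gene, with 1 point per array (filled where detected, open where not) and a bar at each mean of 4 arrays. Dotted lines mark the level expected in Double skin if both effects added, and dashed lines the mean detection floor of the Double arrays (4.99); the dotted line lies below the floor for Hamp2 and Serpina3b.

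Among the 7 genes with a negative interaction, all 4 Shp2lof arrays lay above all 12 other arrays, while Double skin lay near Mek1gof skin. Shp2lof and control arrays did not overlap for 11.5% of all genes, and Double and Mek1gof arrays for 4.56%. The share of genes with Shp2lof arrays apart from all 12 others was not counted, and selection on the interaction favours that pattern. The gene with the smallest p was Pyy, on chromosome 11, which encodes the gut and pancreas hormone peptide YY. It read 4.84, 5.0, 4.44 and 4.65 in Double, 4.87, 4.97, 4.62 and 4.53 in Mek1gof, 8.80, 9.28, 8.77 and 9.29 in Shp2lof and 5.06, 6.50, 6.07 and 5.96 in control skin. Every Shp2lof array was above every other array, and every control array was above every Double and Mek1gof array. Pyy rose in Shp2lof skin by 3.13 on the log2 scale (8.77-fold, adjusted p = 1.16e-06, limma), whereas Double minus Mek1gof was -0.01 (adjusted p = 0.992). The interaction was -3.14 ± 0.33 (SE, adjusted p = 0.000246), with -3.25 on slide 1 and -3.04 on slide 2. Its probe was detected on 1 of 4 Double and 1 of 4 Mek1gof arrays, so the Double level lay at the background where 7.88 was expected from adding both effects.

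A pair of the genes act in interferon response and antigen presentation. Irf1, on chromosome 11, is a transcription factor induced by interferon. It read 9.13, 8.78, 8.48 and 8.71 in Double, 8.97, 9.05, 8.78 and 8.94 in Mek1gof, 9.95, 10.16, 9.96 and 10.37 in Shp2lof and 8.92, 8.95, 9.11 and 9.07 in control skin. Only the Shp2lof arrays stood apart. The Shp2lof change was 1.10 (2.14-fold, adjusted p = 0.000247), Double minus Mek1gof was -0.16 (adjusted p = 0.721) and the interaction -1.25 ± 0.20 (adjusted p = 0.0101, limma). The 3 other probes of Irf1 gave interactions of -0.53, 0.24 and -0.03, and the mean of its probes gave -0.39 (adjusted p = 0.753), so the call rests on 1 of its probes. Tap2, on chromosome 17, is a subunit of the transporter that loads peptides onto MHC class I. It read 6.42, 5.94, 5.96 and 6.44 in Double, 6.76, 6.69, 6.56 and 6.37 in Mek1gof, 7.24, 7.68, 7.57 and 7.72 in Shp2lof and 6.83, 6.50, 6.74 and 6.73 in control skin. Double skin was low as well as Shp2lof skin high, though Double and Mek1gof arrays overlapped. Its Shp2lof change was 0.85 (adjusted p = 0.00475), and the interaction was -1.26 ± 0.22 (adjusted p = 0.0221). Tap2 no longer passed when any 1 of 7 arrays was left out (adjusted p at most 0.0789, Shp2lof replicate 2).

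A pair of immune cell genes followed the same pattern. Fcgr4, on chromosome 1, is an activating Fc receptor of myeloid cells. It read 6.56, 6.26, 5.31 and 6.13 in Double, 5.57, 5.90, 5.71 and 6.08 in Mek1gof, 8.0, 8.82, 8.49 and 8.47 in Shp2lof and 6.0, 6.04, 5.93 and 5.99 in control skin. The Double, Mek1gof and control arrays overlapped and the Shp2lof arrays were higher than all of them. The Shp2lof change was 2.45 (5.48-fold, adjusted p = 7.33e-06), Double minus Mek1gof was 0.25 (adjusted p = 0.714) and the interaction was -2.21 ± 0.31 (adjusted p = 0.00273, limma). Summed macrophage and dendritic cell markers (5 of 8 tested; Cd68, Csf1r and Itgax not) were at 9.99 to 10.73 in Double, 10.05 to 10.54 in Mek1gof, 9.72 to 10.95 in Shp2lof and 10.08 to 11 in control arrays. The 4 ranges overlapped, and the part of these cells in the Fcgr4 result was not tested. Foxp3, on chromosome X, is the defining transcription factor of regulatory T cells. It read 6.04, 5.58, 5.18 and 5.27 in Double, 5.57, 5.57, 5.54 and 5.62 in Mek1gof, 6.37, 6.72, 6.75 and 6.46 in Shp2lof and 5.03, 4.99, 4.95 and 5.09 in control skin. Shp2lof arrays were the highest and control arrays the lowest, with Double and Mek1gof between them and overlapping each other. The Shp2lof change was 1.56 (2.95-fold, adjusted p = 2.58e-05), Double minus Mek1gof was -0.06 (adjusted p = 0.925) and the interaction -1.62 ± 0.22 (adjusted p = 0.00273). A second Foxp3 probe gave -0.33, and the mean of both did not pass (adjusted p = 0.0971). Summed T cell markers (3 of 6 tested, Foxp3 itself among them; Cd2, Trac and Lck not) were at 7.42 to 8.69 in Double, 8.15 to 8.75 in Mek1gof, 8.21 to 8.59 in Shp2lof and 8.0 to 8.61 in control arrays; their part in the Foxp3 result was not tested.

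The remaining genes with a negative interaction encode a glucose transporter and an epithelial protease inhibitor. Slc2a1, on chromosome 4, encodes GLUT1, which brings glucose into keratinocytes and many other cells. It read 9.09, 8.89, 8.84 and 8.78 in Double, 9.20, 9.09, 9.06 and 9.17 in Mek1gof, 10, 10.74, 10.02 and 10.20 in Shp2lof and 8.70, 8.79, 8.94 and 9.33 in control skin. Only Shp2lof skin stood apart, and the level is far above the background. The Shp2lof change was 1.30 (2.47-fold, adjusted p = 0.000212), Double minus Mek1gof was -0.23 (adjusted p = 0.655) and the interaction -1.53 ± 0.23 (adjusted p = 0.00661, limma). Serpinb3a, on chromosome 1, encodes a clade B serpin of squamous epithelia. It read 4.99, 4.83, 4.53 and 4.43 in Double, 5.13, 4.84, 4.69 and 4.94 in Mek1gof, 5.95, 6.60, 6.29 and 5.79 in Shp2lof and 4.44, 4.41, 4.63 and 4.76 in control skin. It was detected on all 4 Shp2lof arrays, on 1 Double and 1 Mek1gof array, and on 0 of 4 control arrays, so it is bounded by the background in control. The fitted interaction was -1.80 ± 0.25 (adjusted p = 0.00273); with each control array set no lower than its floor it was -1.45. Double and Mek1gof lay at the background too, so their difference was not measured and no lower bound on the interaction follows.

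Both genes with a positive interaction fell in each single mutant, and for both the additive expectation lay below what the array can measure. Hamp2, on chromosome 7, encodes a member of the hepcidin family, the regulators of iron export. It read 7.03, 5.81, 5.27 and 4.81 in Double, 6.54, 5.28, 4.67 and 4.79 in Mek1gof, 6.88, 6.80, 7.06 and 7.21 in Shp2lof and 10.60, 10.74, 10.17 and 11.12 in control skin. All control arrays were far above all others, and Double arrays overlapped both single mutants. Hamp2 fell in Shp2lof skin (-3.67, adjusted p = 5.12e-05) and in Mek1gof skin (-5.34, adjusted p = 1.38e-06, limma). The interaction was 4.08 ± 0.57 (adjusted p = 0.00273), with 4.35 on slide 1 and 3.82 on slide 2. Adding both effects gives 1.64 for Double, which is below the mean floor of 4.99, so a full additive decrease could not have been read. Hamp2 was detected on 3 of 4 Double and 2 of 4 Mek1gof arrays. Serpina3b, on chromosome 12, a clade A serpin, read 8.29, 7.70, 5.79 and 5.76 in Double, 6.21, 7.06, 6.75 and 6.67 in Mek1gof, 5.52, 5.45, 5.12 and 6.23 in Shp2lof and 8.66, 8.37, 8.61 and 9.48 in control skin. The Double arrays split by slide, with the slide 1 pair above and the slide 2 pair below every Mek1gof array. Sex differed between these pairs as well: Double 1 and 2 had female levels of Xist and Eif2s3y, Double 3 male ones, and Double 4 fitted neither cleanly. Slide and sex cannot be told apart here. It fell in Shp2lof skin (-3.20, adjusted p = 0.000466) and in Mek1gof skin (-2.11, adjusted p = 0.0408). Its interaction was 3.41 ± 0.63 (adjusted p = 0.0499), with 4.39 on slide 1 and 2.43 on slide 2, and the additive expectation of 3.47 was also below the floor. It passed in 17 of 36 alternatives, the least often of the 9, and was lost when any 1 of 11 arrays was left out (adjusted p = 0.0665 to 0.152).

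Without Shp2lof 4, Mek1gof 2 and Double 4, 5 of the 9 still passed: Pyy at -2.96 (adjusted p = 0.0137), Serpinb3a at -1.86 (adjusted p = 0.0137), Foxp3 at -1.58 (adjusted p = 0.0432), Hamp2 at 4.45 (adjusted p = 0.0137) and Serpina3b at 4.13 (adjusted p = 0.0234). The other 4 read about as large with fewer arrays, Fcgr4 at -2.19 (adjusted p = 0.0527), Slc2a1 at -1.52 (adjusted p = 0.118), Irf1 at -1.11 (adjusted p = 0.165) and Tap2 at -1.25 (adjusted p = 0.131). All 9 kept their sign on each slide alone, which their selection over both slides favours, and all 9 passed with slide as a block. On slide 1 alone Hamp2 and Serpina3b passed, and on slide 2 alone Pyy, Serpinb3a, Foxp3, Fcgr4 and Hamp2.

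Promoters of the genes past the threshold were read from RefSeq windows on GRCm38.p6, as the 250 bases before each annotated start, because Irf1, Tap2 and Fcgr4 lie in immune programs whose regulators have well-known recognition letters. Windows were found for 8 of the 9 genes, not for Tap2. Both strands were searched for GAAA, any 2 bases and GAAA (the core of the interferon-stimulated response element) and for TGANTCA (AP-1). Of 32851 windows of this length, 2.98% held the first and 6.75% the second. The first was found before Fcgr4 and the second before Hamp2. No match to either was found in the windows of Irf1, Foxp3, Pyy, Slc2a1, Serpinb3a and Serpina3b. The windows of Fcgr4 and Hamp2 are printed for their matches, which stand in capitals, and that of Pyy as the gene with the smallest p. A match describes these letters and shows no binding.
Fcgr4 (chr1:171018676-171018925, plus strand): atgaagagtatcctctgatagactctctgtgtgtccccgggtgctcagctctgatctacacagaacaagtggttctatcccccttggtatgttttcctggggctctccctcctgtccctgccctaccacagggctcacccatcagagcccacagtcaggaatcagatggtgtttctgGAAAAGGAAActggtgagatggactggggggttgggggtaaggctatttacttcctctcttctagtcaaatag
Hamp2 (chr7:30924182-30924431, minus strand): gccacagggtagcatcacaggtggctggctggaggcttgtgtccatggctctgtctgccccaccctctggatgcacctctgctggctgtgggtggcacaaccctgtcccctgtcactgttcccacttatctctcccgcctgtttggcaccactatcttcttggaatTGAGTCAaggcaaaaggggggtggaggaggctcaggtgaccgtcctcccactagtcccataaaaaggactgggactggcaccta
Pyy (chr11:102107833-102108082, minus strand): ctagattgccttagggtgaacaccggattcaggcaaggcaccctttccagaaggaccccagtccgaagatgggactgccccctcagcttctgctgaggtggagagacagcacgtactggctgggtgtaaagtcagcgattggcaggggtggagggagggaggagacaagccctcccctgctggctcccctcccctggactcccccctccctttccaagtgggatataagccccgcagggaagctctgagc
In the Fcgr4 window the match began 73 bases before the start, and in that of Hamp2 84 bases before it.

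The 11 genes with the next smallest p did not pass (adjusted p = 0.0649 to 0.111, limma), and in 8 of them the 4 Shp2lof arrays lay apart from all 12 others. A small interaction p favours such separation, and its share over all genes was not counted. With slide as a block 7 of the 11 passed: Gap43 (adjusted p = 0.0021), Ltb4r1 (adjusted p = 0.0117), Mmp12 (adjusted p = 0.0367), Ms4a10 (adjusted p = 0.049), and Epgn, Krtap31-2 and Fam171b (adjusted p = 0.0494 each). Epgn, an EGF receptor ligand of the epidermis, read 8.84, 8.84, 8.09 and 8.27 in Double, 7.83, 8.35, 9.10 and 8.75 in Mek1gof, 9.81, 11.07, 10.17 and 10.38 in Shp2lof and 8.69, 8.35, 8.19 and 8.01 in control skin. Again the Shp2lof arrays were the 4 highest. The interaction of Epgn was -2.04 ± 0.39, with -1.17 on slide 1 and -2.92 on slide 2. Mmp12, the macrophage metalloelastase, had a fitted interaction of -1.83, but it was detected on 0 of 4 Mek1gof arrays, 1 Double and 2 control arrays, and no usable bound could be set. Elf3, an epithelial Ets factor, read -1.71 (another probe -0.46), the leukotriene B4 receptor gene Ltb4r1 -1.0 and Cyp4f18, a leukotriene-oxidizing enzyme of mouse leukocytes, -1.32. Except on replicate 4, Elf3 lay below the detection floor in Mek1gof skin (4.64 to 4.74), so the background limits its size. Teddm3 and Ms4a10 read -1.47 and -1.20. The positive ones were Krtap31-2, a keratin-associated protein gene of hair (2.98), Samd5 (1.09), Fam171b (0.90) and Gap43, a protein of growing axons and immature Schwann cells (1.52). Gap43 read 6.36, 6.18, 6.95 and 7.26 in Double, 5.80, 5.94, 6.36 and 5.98 in Mek1gof, 5.41, 5.40, 5.69 and 5.96 in Shp2lof and 6.10, 6.16, 6.85 and 6.75 in control skin. All Shp2lof arrays lay below all Double and control arrays, while Mek1gof arrays overlapped both. All 20 genes with the smallest p had the same sign on both slides. They were selected on the interaction over both slides, which itself favours equal signs. All 734 genes with an unadjusted p under 0.05 kept their sign when the interaction was formed from unlogged intensities of the same arrays, which is no independent check.

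The background bounded few of the interactions. At least 1 group had no detected array for 514 genes (5.02%): Double for 189, Mek1gof for 166, Shp2lof for 149 and control for 115. Of these 514, 49 had an unadjusted p under 0.05 and 1, Serpinb3a, passed. For 354 of them the floor of the undetected group moved the interaction toward 0, which bounds it where the other groups were detected. For 811 genes (7.93%) the additive expectation for Double lay below the floor, among them 56 of the 734 genes with an unadjusted p under 0.05 and 2 of the 9 that passed. How far the floor shaped the interactions of these genes was not tested.

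**Figure D2:**
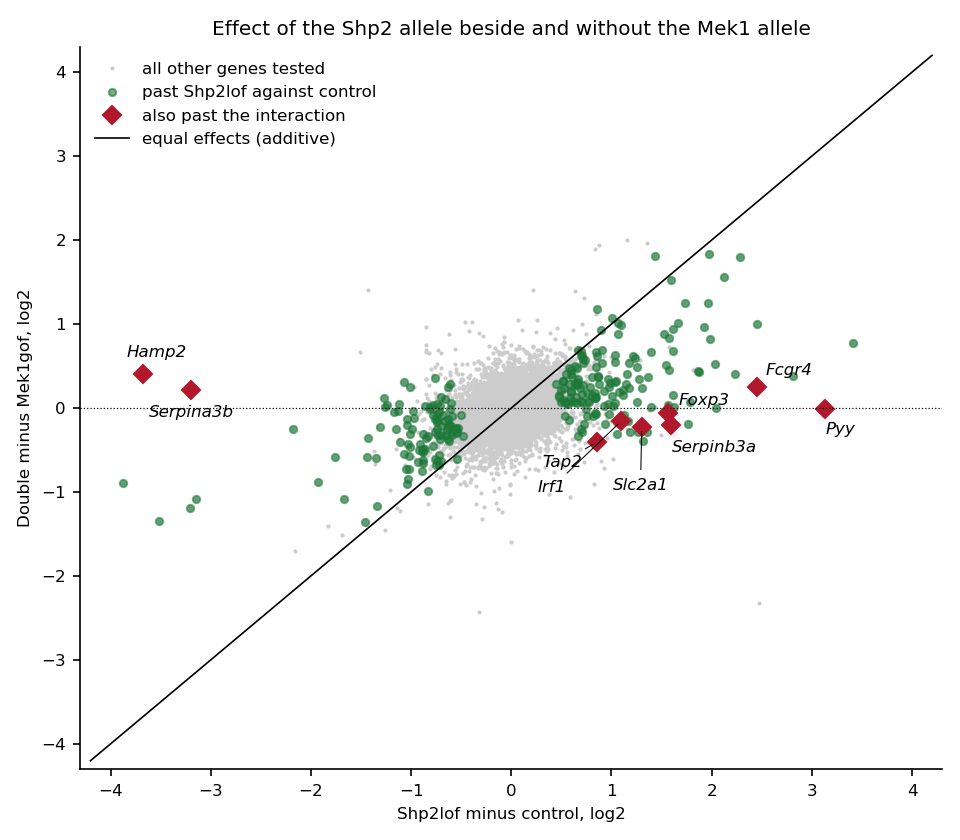
Double minus Mek1gof (vertical axis) against Shp2lof minus control (horizontal axis), both log2 differences, for the 10232 genes tested; the diagonal marks equal effects. The 261 genes past Shp2lof against control lie mostly between the diagonal and the horizontal line at 0, and the 9 labelled genes near that line.

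Beyond the 9 genes, both estimates of the Shp2lof effect use different arrays and can be set side by side. The 154 genes higher in Shp2lof skin had a median of 0.27 in Double minus Mek1gof, against 0.93 in Shp2lof minus control, where they were selected. Of these, 126 had the same sign beside the Mek1 allele, 13 passed there in the same direction and 0 in the opposite one, where 0.176% of all genes passed as higher. The 107 genes lower in Shp2lof skin had medians of -0.29 and -0.83 in the same order, 88 with the same sign and 5 that passed (0.108% of all genes passed as lower). The 29 calls in Double against Mek1gof (0.283%) were 8 and 5 without Mek1gof replicates 1 and 2, and 15, 10 and 13 without Double replicates 2, 3 and 4. Since selection on the single effect inflates it, the effect was read again on the slide that had not been used to select. The 63 genes higher on slide 1 had, on slide 2, a median of 0.02 in Double minus Mek1gof, against 1.08 in Shp2lof minus control. The 45 genes lower on slide 1 had -0.42 and -0.76 on slide 2. The 97 genes higher on slide 2 had 0.57 and 1.03 on slide 1, and the 78 lower on slide 2 had -0.23 and -0.67. The median increase beside the Mek1 allele was near 0 on slide 2 but not on slide 1. The interaction opposed the single effect for 85.2% of the genes selected on slide 1 and read on slide 2, where 54.8% of all genes did, and for 70.9% the other way round, where 52.9% did. On shared arrays the share was 97.3%, against 72.2% of all genes.

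Some Shp2lof effects were still seen beside the Mek1 allele. By unadjusted p under 0.05, 42 of the 154 raised genes were also higher in Double than in Mek1gof and showed no opposing interaction (4.89% of all genes met this), 87 showed an opposing interaction and no such effect, 8 showed both and 17 neither. For the 107 lowered genes these counts were 36 (4.83% of all genes met this), 48, 6 and 17. Over all genes, 4.07% had a negative and 3.11% a positive interaction at this level. The counts of opposing interactions are inflated, since the same Shp2lof and control arrays selected the genes and enter the interaction. An interaction that misses the threshold does not show a full effect: among these genes Fpr2, a formyl peptide receptor, had 0.59 in Double minus Mek1gof, against 1.24 in Shp2lof minus control, and was picked after its values were seen. The 4 largest increases that were additive within 2-fold were Dnajc12, a J-domain co-chaperone, Csrp2, a LIM-domain protein, Tmem229a and Calhm6. Dnajc12 read 6.85, 6.93, 6.59 and 6.50 in Double, 5.62, 5.48, 6.10 and 5.72 in Mek1gof, 7.09, 6.86, 6.66 and 6.95 in Shp2lof and 5.76, 5.88, 5.68 and 5.84 in control skin. Both groups with the Shp2 allele were above both groups without it, with no overlap. It rose by 0.99 in Double over Mek1gof (adjusted p = 0.00723) and by 1.10 in Shp2lof over control (adjusted p = 0.00035, limma), an interaction of -0.11 with an interval of -0.55 to 0.33. Csrp2 had 0.89 and 1.07 for these effects, Tmem229a 1.01 and 1.07, and Calhm6 0.64 and 1.04, the last not past the threshold beside the Mek1 allele (adjusted p = 0.238).

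Among decreases that were additive within 2-fold, the 4 largest were those of Upp1, Fabp9, Slain1 and Dusp2. Fabp9, a fatty acid-binding protein, read 5.71, 6.26, 6.08 and 6.07 in Double, 7.38, 7.26, 7.05 and 7.07 in Mek1gof, 5.37, 5.76, 5.15 and 5.64 in Shp2lof and 7.08, 6.38, 6.64 and 7.19 in control skin. The groups with the Shp2 allele were again apart from those without it. Fabp9 fell by 1.16 in Double against Mek1gof (adjusted p = 0.00941) and by 1.34 in Shp2lof against control (adjusted p = 0.000378, limma). Upp1, a uridine phosphorylase, fell by 1.36 in Double against Mek1gof (adjusted p = 0.028) and by 1.46 in Shp2lof against control. Dusp2, a phosphatase of activated ERK, fell by 0.84 in Double against Mek1gof (adjusted p = 0.0415) and by 1.03 in Shp2lof against control. Slain1 read -0.90 (adjusted p = 0.147) and -1.04 for the same effects. Shh, the hedgehog ligand of the growing hair follicle, was higher in both groups with the Shp2 allele. It read 8.19, 7.79, 8.19 and 7.89 in Double, 7.03, 7.04, 7.2 and 7.26 in Mek1gof, 8.86, 8.62, 8.38 and 8.07 in Shp2lof and 7.26, 6.88, 6.94 and 6.75 in control skin. Shh was higher with the Shp2 allele whether or not the Mek1 allele was present, by 0.89 in Double over Mek1gof (adjusted p = 0.028) and by 1.53 in Shp2lof over control (adjusted p = 4.35e-05). Its interaction was -0.64 ± 0.23 (adjusted p = 0.528), and a second probe gave -0.17.

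**Figure D3:**
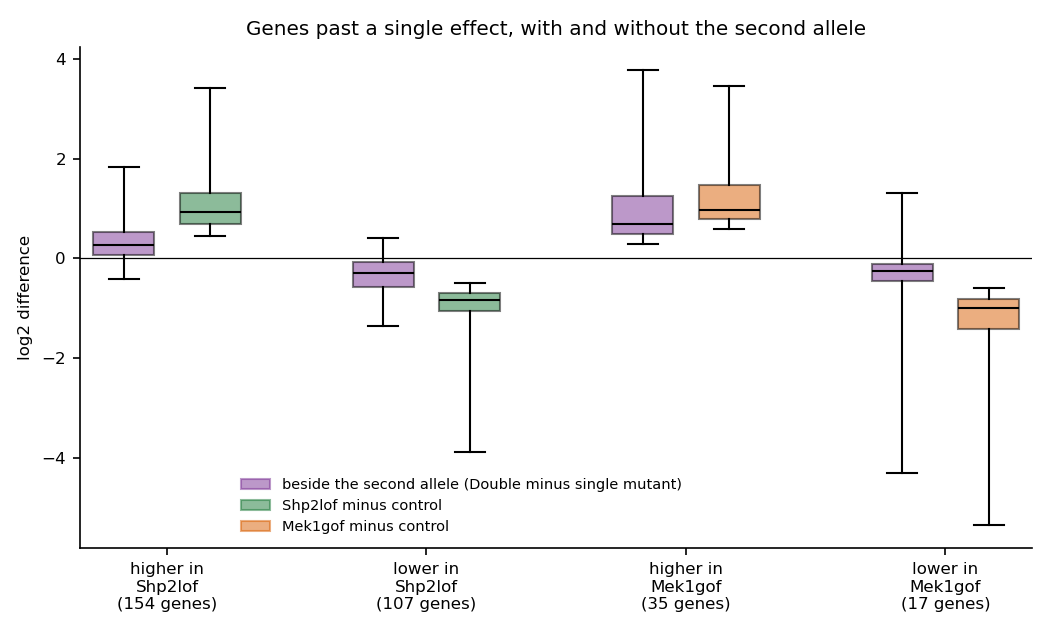
Log2 differences of the genes past each single effect, in the single mutant against control and beside the second allele (Double minus the other single mutant); boxes span the quartiles with a line at the median, whiskers the whole range. The box beside the second allele lies nearer 0 for the Shp2lof genes (medians 0.27 and -0.29, against 0.93 and -0.83) than for the genes higher in Mek1gof (0.68, against 0.96).

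Read from the other allele, increases in Mek1gof skin shrank less beside the Shp2 allele, by medians of genes selected on all 16 arrays. This is a description, and selection inflates the single effect here too. The 35 genes higher in Mek1gof skin (0.342% of genes) had a median of 0.68 in Double minus Shp2lof, against 0.96 in Mek1gof minus control. All 35 had the same sign there and 15 passed, where 0.43% of all genes passed as higher. By unadjusted p, 28 of them were also higher in Double than in Shp2lof with no opposing interaction (5.97% of all genes met this), and 2 showed only an opposing interaction. The 17 genes lower in Mek1gof (0.166%) had medians of -0.24 and -0.99, and 1 of them passed (Pyy, -4.3, adjusted p = 6.13e-09). Elovl3, a fatty acid elongase of sebocytes, read 9.19, 9.39, 8.74 and 8.59 in Double, 8.74, 9.43, 9.07 and 9.44 in Mek1gof, 7.59, 7.59, 7.13 and 7.41 in Shp2lof and 7.96, 7.88, 7.59 and 7.58 in control skin. Both groups with the Mek1 allele were above both groups without it. Elovl3 rose by 1.55 in Double over Shp2lof (adjusted p = 0.000253) and by 1.42 in Mek1gof over control (adjusted p = 0.00171, limma), and its interaction was 0.13 ± 0.27. Mgll, which cleaves monoglycerides, had 0.81 (adjusted p = 0.0111) and 0.99 for these effects (interaction -0.18, other probes 0.67 and 0.08). Hsd17b7, an enzyme of cholesterol synthesis, had 0.63 (adjusted p = 0.12) and 1.06, and Etv4, an Ets factor downstream of ERK, 0.59 (adjusted p = 0.177) and 0.96. The lower genes sorted as additive within 2-fold, Ddr2, Ago3 and Rufy3, were near the background, and Ddr2 and Rufy3 were detected on 0 of 4 Mek1gof arrays. For the same effects Ddr2 had -0.56 and -0.94, Ago3 -0.29 and -0.76, and Rufy3 -0.05 and -0.6. Ago3 and Rufy3 had opposing interactions of 0.47 and 0.55 (unadjusted p = 0.041 and 0.00842, limma), so this sorting does not show that their decreases were kept. Read on the other slide, the Mek1gof effect depended on the slide used. The 16 genes higher on slide 1 had, on slide 2, a median of 0.67 in Double minus Shp2lof, against 1.41 in Mek1gof minus control. The 97 genes higher on slide 2 had 0.26 and -0.01 on slide 1, so no increase was left there to compare. The 52 calls of Mek1gof against control (0.508%) were 15 and 16 without control replicates 2 and 3, and 32, 31 and 19 without Mek1gof replicates 2, 3 and 4, and Mek1gof and control arrays did not overlap for 6.05% of genes. The 99 calls in Double against Shp2lof (0.968%; 55 lower, 0.538%) were 56 without Shp2lof replicate 3, and those arrays did not overlap for 6.54% of genes.

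**Figure D4:**
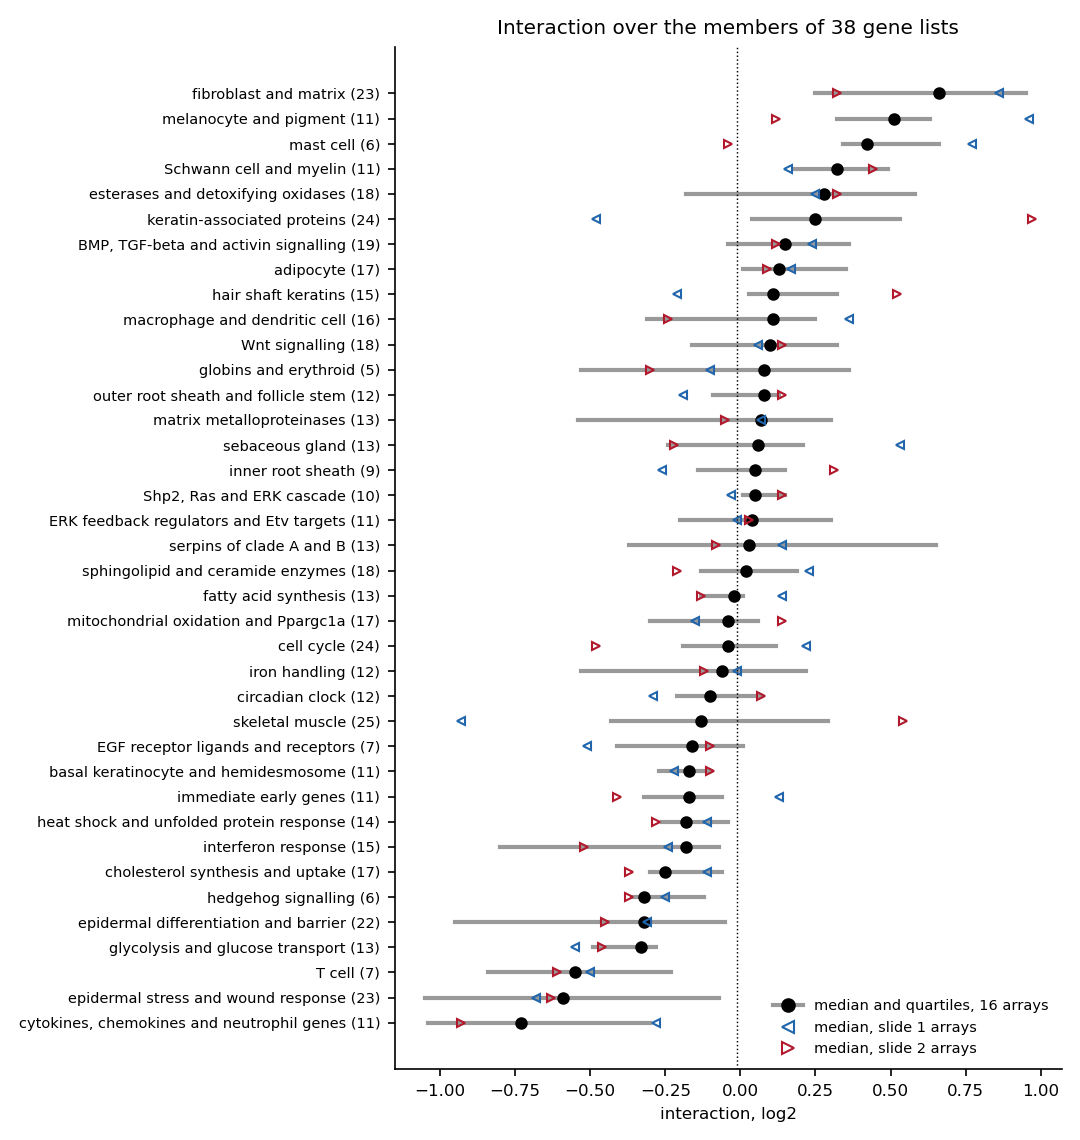
Median interaction (log2) over the measured members of 38 gene lists, with quartiles, and the same median from the arrays of each slide alone; the dotted line is the median of all genes (-0.01). Over all arrays fibroblast and matrix genes lie highest (0.66) and the inflammatory mediators with neutrophil genes lowest (-0.73). On slide 1 alone the mediator list is at -0.28 and not the lowest.

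Over all arrays, fibroblast and matrix genes had the most positive median interaction of the 38 gene lists, though not on either slide alone: the melanocyte list was higher on slide 1 (0.96), and the keratin-associated protein (0.97), skeletal muscle (0.54), hair shaft (0.52) and Schwann cell (0.44) lists on slide 2. Of 23 measured members 14 were positive at an unadjusted p under 0.05 (3.11% of all genes) and 0 negative, though 0 passed after adjustment over all genes. Their median was 0.66, against -0.01 over all genes, with 0.86 on slide 1 and 0.32 on slide 2. In these genes Double minus Mek1gof had a median of 0.15, against -0.60 for Shp2lof minus control. Eln, which encodes elastin, read 11.48, 11.26, 10.93 and 10.92 in Double, 10.98, 10.97, 10.81 and 10.82 in Mek1gof, 10.62, 10.55, 10.48 and 10.26 in Shp2lof and 11.07, 11.04, 11.04 and 11.29 in control skin. Shp2lof arrays were the 4 lowest. Its interaction was 0.88 ± 0.19 (adjusted p = 0.116, limma). The collagen I genes Col1a1 and Col1a2 had interactions of 1.10 (adjusted p = 0.173) and 1.39 (adjusted p = 0.234), Col3a1 1.17 (adjusted p = 0.443), the matrix protein gene Sparc 0.77 (adjusted p = 0.32) and Lox, which crosslinks collagen and elastin, 0.87 (adjusted p = 0.481). Without the 3 arrays of unclear sex 13 members were positive at an unadjusted p under 0.05 and the median was 0.77, and leaving out each array in turn gave 0.55 to 0.81. On slide 2 alone the count was 5. The summed fibroblast markers, 6 of 6 tested, moved with this list: 14.61 to 15.03 in Double, 14.55 to 14.97 in Mek1gof, 13.99 to 14.66 in Shp2lof and 14.96 to 15.35 in control arrays. Their part in the result was not tested, and all 6 also belong to the list.

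**Figure D5:**
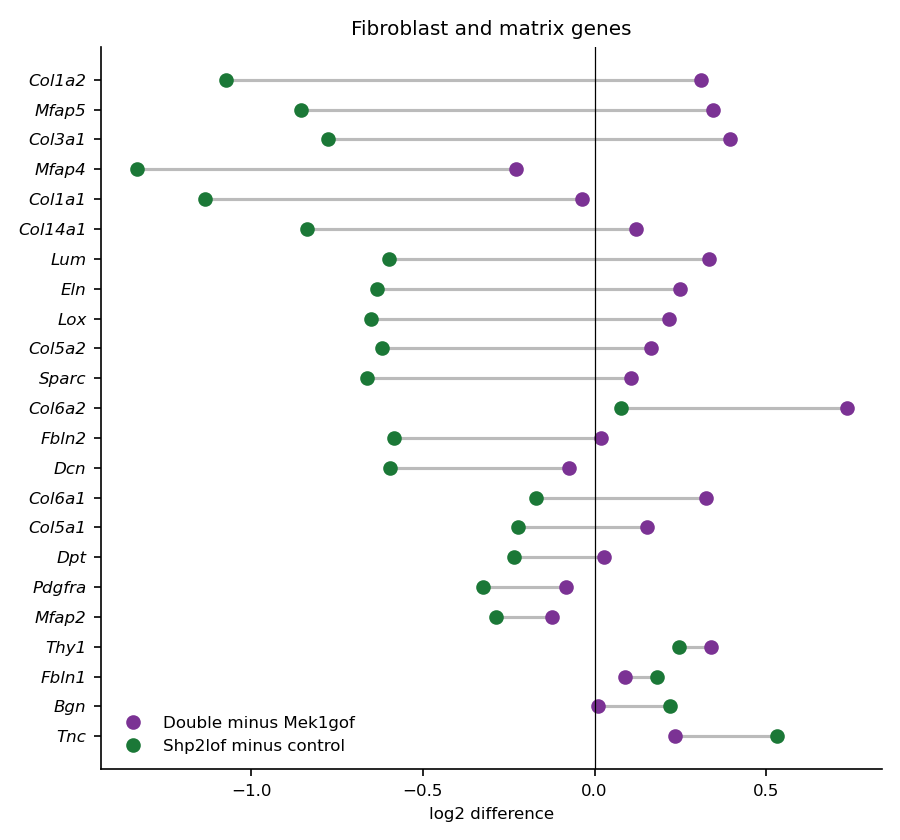
Log2 differences Double minus Mek1gof and Shp2lof minus control for the 23 measured fibroblast and matrix genes, ordered by interaction; lines join the values of a gene. Most Shp2lof values lie below 0, to -1.33 (Mfap4), and most Double minus Mek1gof values near or above 0.

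Epidermal stress and wound response genes showed the opposite arrangement. Of 23 measured members 7 were negative and 1 positive (S100a8) at an unadjusted p under 0.05, 0 passed after adjustment, and the median was -0.59 (-0.68 and -0.63 on the slides). Their medians were 0.47 in Double minus Mek1gof and 1.30 in Shp2lof minus control, with 2 members past the threshold as higher in Double against Mek1gof (0.176% of all genes) and 11 higher in Shp2lof against control (1.51%). Sprr2d, a small proline-rich protein of the cornified envelope, read 6.44, 5.51, 4.57 and 4.69 in Double, 5.34, 4.96, 4.75 and 4.63 in Mek1gof, 7.74, 8.58, 8.36 and 7.59 in Shp2lof and 6.44, 4.63, 5.21 and 4.72 in control skin. It was detected on 2 of 4 Double, 1 of 4 Mek1gof and 2 of 4 control arrays. Its interaction was -2.43 ± 0.56 (adjusted p = 0.14, limma). Stfa1, a stefin, had -2.64 (adjusted p = 0.197), Defb4, a beta-defensin, -1.5 (adjusted p = 0.276) and Krt16, a keratin of wounded epidermis, -1.06 (adjusted p = 0.597). The members were not alike: Sprr2g and Sprr2f stayed raised beside the Mek1 allele, by 1.80 (adjusted p = 0.00123) and 1.56 (adjusted p = 0.0331), with interactions of -0.49 and -0.56. Sprr2 probes may bind transcripts of close paralogs, which leaves single members uncertain.

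Immune lists leaned the same way as the stress genes in part. Of 15 interferon response genes 6 were negative and 1 positive (Irgm1) at an unadjusted p under 0.05 (4.07% and 3.11% of all genes). Their median was -0.18, and leaving out each array in turn gave -0.35 (Double replicate 1) to -0.13 (control replicate 3 or Double replicate 3). It was -0.28 without Shp2lof replicate 2 or Mek1gof replicate 4 and -0.14 without the 3 arrays of unclear sex. The count of negative members at this p was 4 to 6 leaving out each array and 4 without those 3. Psmb9, an immunoproteasome subunit, read 7.07, 6.38, 6.33 and 6.83 in Double, 6.78, 6.69, 6.62 and 6.79 in Mek1gof, 7.62, 7.62, 7.71 and 8.02 in Shp2lof and 6.84, 6.62, 7.01 and 7.10 in control skin. Shp2lof arrays were the 4 highest, as for Tap2. Its interaction was -0.91 ± 0.23 (adjusted p = 0.221, limma), and those of Tap1, the partner subunit of Tap2, and the interferon-induced GTPase gene Igtp were -0.82 (adjusted p = 0.569) and -1.19 (adjusted p = 0.476). Of 11 genes for inflammatory mediators and neutrophil proteins 3 were negative at an unadjusted p under 0.05 (Cxcl9, Cxcl1 and Ccl8). By sign alone 9 of the 11 were negative, where 5333 of the 10232 genes were. Their median was -0.73, with -0.28 on slide 1 and -0.93 on slide 2. It was -0.46 without Double replicate 3 and -0.36 without the 3 arrays of unclear sex. The count at this p was 2 to 6 leaving out each array in turn, with 6 without Double replicate 1. Of 7 T cell genes 6 were negative by sign alone and 3 at an unadjusted p under 0.05. These 3 were Foxp3, the T cell receptor subunit gene Cd3d (-1.01) and the checkpoint receptor gene Ctla4 (-0.67). Of 16 macrophage and dendritic cell genes 5 were negative by sign alone and 3 at an unadjusted p under 0.05. These 3 were Fcgr4, Mmp12 and Clec7a, the beta-glucan receptor (-1.96, adjusted p = 0.128, limma). The median of this list was 0.11, with 0.36 on slide 1 and -0.24 on slide 2. The direction of this median depended on the slide, and it was -0.09 without Shp2lof replicate 1.

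All 13 measured glycolysis and glucose transport genes had a negative interaction, where 5333 of the 10232 genes did, with a median of -0.33 (-0.55 and -0.46 on the slides). Of them 1, Slc2a1, passed, and at an unadjusted p under 0.05 there were 3, with Ldha, lactate dehydrogenase (-0.53), and Hk2, a hexokinase (-0.44). Leaving out each array in turn gave 2 to 5 at this p, with 5 without Mek1gof replicate 4, and without the 3 arrays of unclear sex there were 2. Neither Ldha nor Hk2 passed in either single effect. On slide 1 alone 9 and on slide 2 alone 11 of the 13 were negative. Genes of the cascade itself were near additive: 10 measured genes of the Shp2, Ras and ERK cascade had a median of 0.05 and 0 at an unadjusted p under 0.05. Of 11 ERK feedback regulators and Etv targets 2 were negative at an unadjusted p under 0.05, Dusp6, the ERK phosphatase (-0.65, adjusted p = 0.597), and Ier3 (-0.60, adjusted p = 0.597), and the median was 0.04. Schwann cell and myelin genes, in cells that use the driver, had a median of 0.32 over 11 members with 0 at an unadjusted p under 0.05. Skeletal muscle and keratin-associated protein lists turned between slides, with medians of -0.93 and 0.54 and of -0.48 and 0.97 on slides 1 and 2, and no direction is given for them.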

How the data were processed

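Whole-skin RNA of 16 samples, 4 per group, was hybridised to Illumina bead arrays. The deposited intensity values are average bead signals without normalization, and the deposited detection p-values compare each probe with the negative control beads of its array, per the file headers. GenomeStudio is named in the submitters' processing notes, with no version. A second deposited table holds the same values rounded (largest difference 0.05) and its log2 served as an unnormalized alternative.

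Signals were background-corrected, quantile-normalized and put on a log2 scale with neqc (offset 16) in limma 3.58.1 on R 4.3.3. Probes with a detection p-value under 0.05 on at least 4 arrays were kept, 14631 of 25697 (56.9%), and 866 of them without a symbol were left out. Symbols came from the platform annotation (23978 probes with 1 symbol, 0 with several, 1719 without). The probe with the highest mean represented each of 10232 genes. A single fit over all 4 groups (lmFit, eBayes, 12 residual degrees of freedom) gave the interaction and the simple differences, with Benjamini-Hochberg adjustment over 10232 genes at 0.05, and was tested on simulated data. Where a group had no detected array, a bound took, per array, the higher of its level and the detection floor (4.88 to 5.05).

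A gene past the interaction threshold was enhanced where the interaction had the sign of its Shp2lof effect. Otherwise it was suppressed where the effect beside the Mek1 allele was smaller in size, whatever its sign, and turned where it was at least as large. The genes named were the altered genes and the driver, the 20 with the smallest interaction p, the largest additive effects of each single mutant, and from each gene list its members past the threshold or the one with the smallest p. List members at an unadjusted p under 0.05 were added after their values were seen. The members and lists were chosen with earlier results of these data known. The number of arrays limits the precision. The alternatives covered scaling, detection filter, probe choice, array weights, slide, replicate number, sex-linked level, muscle level and each array left out. Figures were drawn with matplotlib 3.10.9 on Python 3.11.15.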

Additional observations from a re-analysis of the deposited data

Results flagged for a closer look

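The 9 genes past the interaction threshold are those whose Shp2lof effect differed with the Mek1 allele by a test of the difference itself (limma): Pyy at -3.14, Fcgr4 at -2.21, Serpinb3a at -1.80, Foxp3 at -1.62, Slc2a1 at -1.53, Tap2 at -1.26, Irf1 at -1.25, Serpina3b at 3.41 and Hamp2 at 4.08 on the log2 scale. In 3 cases a sample stood far from the other 3 of its group. Mmp12 read 5.78 in Double replicate 2, where the nearest Double array read 4.96 and the lowest 4.84. Elf3 read 5.6 in Mek1gof replicate 4, where the nearest Mek1gof array read 4.74 and the lowest 4.64. Samd5 read 6.49 in Shp2lof replicate 2, where the nearest Shp2lof array read 6.81 and the highest 6.84. Chance marks about 1 in 20 groups, or 4.8 of the 96 groups tested over 24 genes, against 3 seen.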

How the results depend on the processing

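No called gene changed sign under any alternative, all of which reuse arrays that selected these genes. The median interaction of the macrophage and dendritic cell list (0.11) was -0.24 on slide 2 alone and -0.09 without Shp2lof replicate 1, and the muscle and keratin-associated lists changed sign between slides. The 9 interaction calls (2 higher, 7 lower, all suppressed) and the 0 enhanced and 0 turned genes changed as follows. With a neqc offset of 1 there were 0 higher calls, with arrays set to a common median 11 lower, with no detection filter 1 higher, with the mean of probes 1 higher, with eBayes trend and robust 1 higher, and on the linear scale 1 higher and 12 lower. Among genes detected on all 16 arrays, where 4 of the 9 could not be tested or passed no longer, there were 5 calls, 0 higher, 5 suppressed. Array weights gave 17 calls (4 higher, 13 lower, 17 suppressed), slide as a block 17 (5 higher, 12 lower, 17 suppressed) and Xist as a covariate 14 (12 lower, 14 suppressed). Slide 1 alone gave 6 higher and 2 lower (5 suppressed, 2 enhanced, 1 turned), and slide 2 alone 36 (16 higher, 20 lower; 25 suppressed, 3 enhanced, 8 turned). Without Shp2lof 4, Mek1gof 2 and Double 4 there were 5 (3 lower, 5 suppressed). Sorted by the Mek1gof effect, 2 were suppressed, 4 enhanced and 3 turned. A bound of 1.5-fold left 28.3% additive, and genes selected on one slide opposed on the other in 85.2% and 70.9%. Leaving out each array gave 7 to 19 calls (1 to 7 higher, 6 to 16 lower), 7 to 19 suppressed, 0 enhanced, 0 to 1 turned and 79.7% to 82.5% additive.

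For the simple differences, Shp2lof against control gave 149 genes unnormalized, 463 with array weights, 108 on slide 1, 138 without the 3 arrays and 130 to 294 leaving out each array. Double against Mek1gof gave 16 with offset 1, 4 unnormalized, 11 unfiltered, 18 on the linear scale, 192 and 76 on slides 1 and 2, 1 without the 3 arrays, 12 with muscle as a covariate and 5 to 36. Mek1gof against control gave 24 unnormalized, 34 unfiltered, 115 with array weights, 84 with slide as a block, 28 and 193 on slides 1 and 2, 33 without the 3 arrays, 13 with muscle as a covariate and 15 to 73. Double against Shp2lof gave 178 unnormalized, 150 with array weights, 158 with slide as a block, 290 and 277 on slides 1 and 2, 63 with muscle as a covariate and 56 to 135. Double against control gave 251 unnormalized, 652 on slide 2, 16 with muscle as a covariate and 136 to 492. Any difference gave 691 with array weights, 257 without the 3 arrays, 257 with muscle as a covariate and 272 to 557. The cause of these moves was not tested.

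The replicate numbers do not pair the samples: 9 of 24 same-numbered pairs correlated above 0.1 (-0.229 to 0.384), and 10 of 16 arrays correlated best with their own number, against 15 with their own slide. With the replicate block there were 10 interaction calls, 7 of the 9 among them and also Gap43 and Ltb4r1, and 85 for Mek1gof against control. The tests of single probes, the list medians, the sorting by unadjusted p and the expectation below the floor were chosen after seeing the data. Signals near the floor limit Hamp2, Serpina3b, Serpinb3a and Pyy.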

Other observations

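Tested one by one, 9 of 14631 probes passed the interaction (limma), 8 of them for genes named in the report. The other was Gsdmc2, a gasdermin gene, at -1.12 (adjusted p = 0.00437), while its brightest probe read 0.30 (adjusted p = 0.921). Hbb-b2, an adult beta-globin gene, read 4.87, 5.11, 4.91 and 4.54 in Double, 6.20, 8.44, 5.68 and 8.84 in Mek1gof, 8.71, 8.45, 9.45 and 8.50 in Shp2lof and 8.29, 9.72, 9.23 and 9.14 in control skin. All Double arrays lay below all others, and the probe was detected on 1 of them. Its interaction was -2.11 (adjusted p = 0.499), and Double minus Shp2lof was -3.92 (adjusted p = 0.000613).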
